A study of Mus musculus with 2 samples.

Results

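The genes of transforming growth factor beta (TGF-beta) and bone morphogenetic protein (BMP) signalling were described in fetal mouse esophagus from embryos labelled null for the skeletal muscle factors Myf5 and Myod1 and from embryos labelled wild type. The list had 43 members, taken as every probe set that the platform annotation names for 1 of these genes alone. It was matched by 95 of 34945 such probe sets and covered 42 of 18193 genes. Ctgf is listed there under its newer symbol Ccn2, and no probe set was found for Bmp3. Of the 42 genes, 36 were measured and 6 lay below the low-signal limit on both arrays.

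The null-labelled array held RNA from the esophagus of BALB/c embryos labelled Myf5-/-:MyoD-/-, at E18.5, close to birth. The wild-type array held esophagus RNA of BALB/c embryos of the same age. The title of the series sets the comparison within the exchange of smooth for striated muscle as the mouse esophagus develops. Each genotype had a single array (n = 1), so every difference is between 2 RNA samples and no statistical test was possible; the sources used here give neither the number of embryos per sample nor how the alleles were made.

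Signals are linear MAS5 intensities, 1 for each probe set, scaled by the authors to the same trimmed mean of 1500 on both arrays. A low-signal limit of 489 was set at the median of all probe sets other than array controls, and lower signals were set to that limit before the log2 ratio of null-labelled over wild type was computed. A ratio with 1 array below the limit is a bound, written "at least". Each gene is given by its brightest probe set, and levels are compared between arrays only, not between genes. The spread between probe sets of the same gene gave an SD of 0.56 on the log2 scale, pooled over 5455 genes. That spread is the only error available, and says nothing of variation between animals. Signals reached the limit for 55.4% of probe sets on the null-labelled array and 44.6% on the wild-type array. The signal ratio of 3' to 5' control probe sets was 14.2 on the null-labelled and 12.6 on the wild-type array for beta-actin, and 6.96 on the null-labelled and 10.5 on the wild-type array for Gapdh. The part of RNA integrity in the ratios below was not tested. Myf5 read 496 on the null-labelled and 4072 on the wild-type array, but Myod1 read 1698 on the null-labelled and 2001 on the wild-type array, and where its probes lie relative to the deletion is not known here.

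TGF-beta ligands are secreted in a latent complex, held in the matrix by latent TGF-beta binding proteins, and once freed signal through Tgfbr2 and Tgfbr1 to Smad2 and Smad3. BMP ligands signal through Bmpr2 and the type I receptors Bmpr1a, Bmpr1b and Acvr1 to Smad1, Smad5 and Smad9, and secreted antagonists such as noggin hold them back. Both branches use Smad4. TGF-beta is known as a promoter of smooth muscle differentiation and matrix production and an inhibitor of myoblast differentiation, and in the mouse the antagonist noggin is needed for the foregut to divide properly into trachea and esophagus. The Id genes, classic BMP targets, encode proteins that bind the E-protein partners of basic helix-loop-helix factors such as Myod1. Members were sorted by these roles into a TGF-beta branch of 14 genes, a BMP branch of 23 and 6 that serve both or neither, called shared.

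Tgfb2, Tgfbr2 and Ctgf of the TGF-beta branch read at least 2-fold lower on the null-labelled array, and Id4 of the BMP branch read 2.94-fold higher. Eng, a shared member, also counted as lower at its brightest probe set, with its other probe set on the opposite side. In all, 4 of the 36 measured members were at least 2-fold lower, where 5.36% of the 13315 measured genes were, and 1 was at least 2-fold higher, where 6.01% were. The 36 members together had a median log2 ratio of 0.019, against 0.086 for all measured genes. The TGF-beta branch lay below that value, with a median of -0.35 over 14 measured genes, and the BMP branch close to it, with 0.090 over 17. The plot of signals at the brightest probe set shows each member on both arrays.

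**Figure D1:**
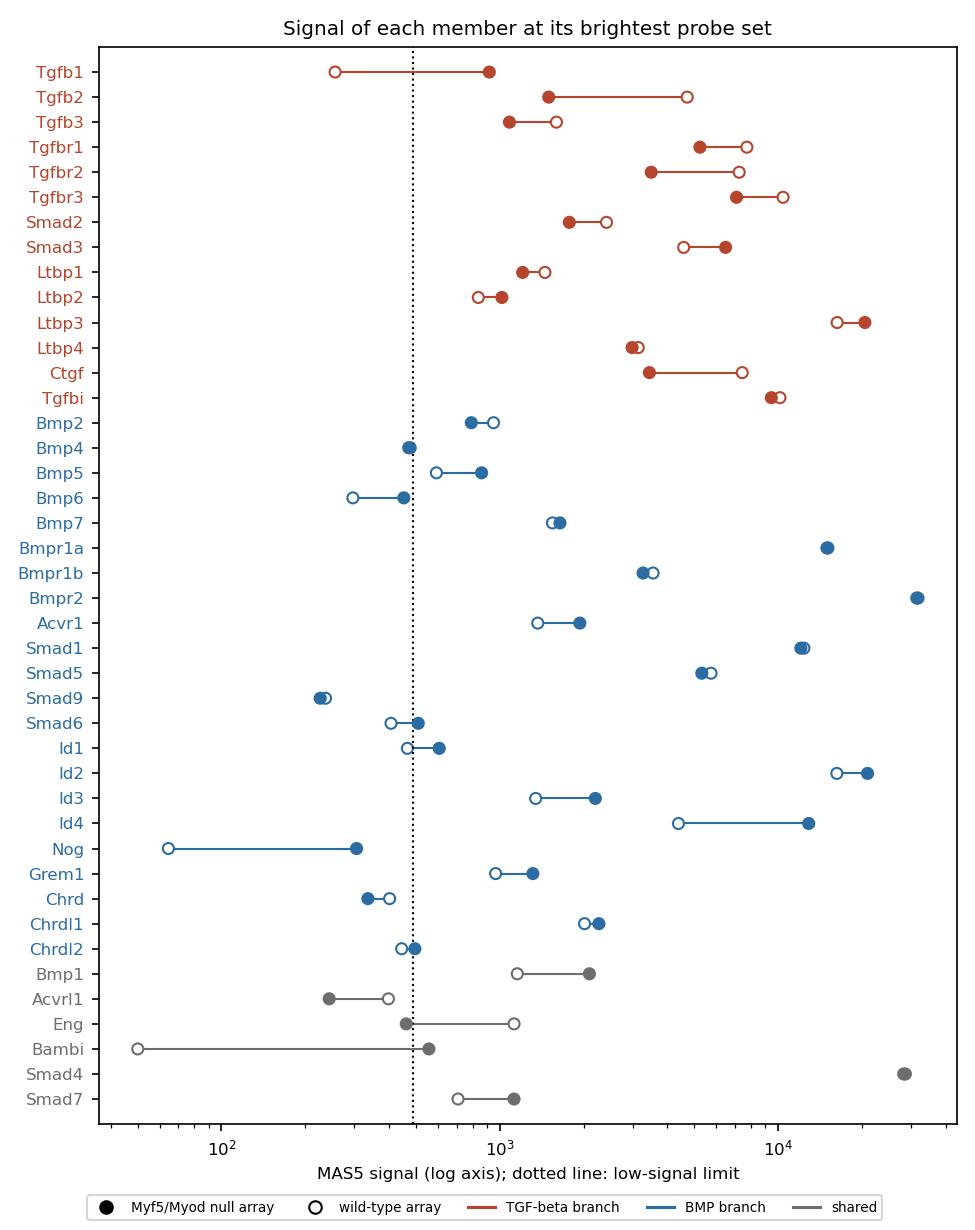
MAS5 signal (log axis) of the 42 members with a probe set, each at its brightest probe set, on the null-labelled array (filled) and the wild-type array (open), coloured by branch, with the low-signal limit of 489 as a dotted line. The filled point lies well to the left for Tgfb2, Tgfbr2 and Ctgf and well to the right for Id4, while for Bmpr1a, Bmpr2, Smad1 and Smad4 both points nearly coincide; Tgfb1, Nog and Bambi are also far apart, but at or below the limit on at least 1 array.

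Sequence is shown for the 3 members at least 2-fold apart whose measured probe sets all lay on the same side of 0 and that have an entry in the RefSeq promoter table, since these carry the differences reported. Each line is the 250 bases before an annotated start, on the gene's own strand, in GRCm38.p6. Capitals mark matches on either strand to GGCGCC, the core of a GC-rich element bound by BMP Smads, and to CAGAC, the core of the CAGA box bound by Smad3. Both motifs were picked after the ratios were known.
Tgfb2 (chr1:186705990-186706239, minus strand): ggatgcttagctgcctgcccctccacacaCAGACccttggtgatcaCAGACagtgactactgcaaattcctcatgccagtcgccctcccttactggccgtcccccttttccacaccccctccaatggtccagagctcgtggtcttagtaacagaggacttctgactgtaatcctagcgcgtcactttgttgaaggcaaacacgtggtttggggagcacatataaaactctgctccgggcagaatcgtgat
Tgfbr2 (chr9:116175364-116175613, minus strand): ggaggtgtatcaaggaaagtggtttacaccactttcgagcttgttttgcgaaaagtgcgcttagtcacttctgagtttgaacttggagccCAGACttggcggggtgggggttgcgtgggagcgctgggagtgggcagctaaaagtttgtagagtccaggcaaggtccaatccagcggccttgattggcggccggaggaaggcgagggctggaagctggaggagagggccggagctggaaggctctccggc
Id4 (chr13:48260866-48261115, plus strand): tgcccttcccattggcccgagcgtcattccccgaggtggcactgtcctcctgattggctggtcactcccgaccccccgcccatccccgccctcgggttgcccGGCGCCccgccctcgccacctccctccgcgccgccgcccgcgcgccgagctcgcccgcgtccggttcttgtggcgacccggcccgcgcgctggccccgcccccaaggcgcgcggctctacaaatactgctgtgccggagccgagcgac
The Tgfb2 start used lies inside the longest annotated span of the gene. Tgfb2 had 2 CAGAC matches, Tgfbr2 had 1 and Id4 had 0, while GGCGCC occurred 1 time, before Id4. CAGAC was present in 42.2% and GGCGCC in 9.59% of 32851 windows of the same length before annotated mouse starts. Among the 35 windows of the 27 members in the table, 45.7% held CAGAC and 34.3% held GGCGCC. No match of one motif overlapped one of the other in the windows shown, and a match does not show binding.

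Ligands of the TGF-beta branch went both ways. Tgfb2, the isoform best known from developing mesenchyme and heart, read 1499 on the null-labelled array and 4711 on the wild-type array, 3.14-fold lower. A second Tgfb2 probe set read 953 on the null-labelled and 2881 on the wild-type array, a log2 ratio of -1.60, and another read 720 on the null-labelled and 924 on the wild-type array, a ratio of -0.36. The last one missed the limit on both arrays, at 365 on the null-labelled and 407 on the wild-type array. The ratio at the brightest Tgfb2 probe set is about as far from 0 as that of Id4 in the opposite direction, and both exceed the probe set spread of 0.56 more than any other member. Tgfb3, the ligand of palate and lung formation, had 1 probe set, with 1083 on the null-labelled and 1597 on the wild-type array, 1.47-fold lower. Tgfb1, the ligand of most matrix and immune responses, was the exception. It read 917 on the null-labelled array and 256 on the wild-type array, below the limit, and so was at least 1.87-fold higher. Its second probe set agreed in direction, with 830 on the null-labelled and 326 on the wild-type array. At a 25th percentile limit both Tgfb1 signals were above it, and the measured log2 ratio was 1.84, past 2-fold. In that setting 16.6% of all genes were at least 2-fold higher. The Tgfb1 log2 ratio was smaller with quantile normalization (0.75) and with loess (0.51), the last within the probe set spread.

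All 3 TGF-beta receptors read lower on the null-labelled array at their brightest probe sets. Tgfbr2, the type II receptor that binds the ligand, read 3498 on the null-labelled and 7243 on the wild-type array, 2.07-fold lower. Tgfbr1, the type I kinase that phosphorylates Smad2 and Smad3, read 5236 on the null-labelled and 7718 on the wild-type array, 1.47-fold lower. Betaglycan, encoded by Tgfbr3 and needed for high-affinity binding of TGF-beta 2, read 7087 on the null-labelled and 10412 on the wild-type array, also 1.47-fold lower. For Tgfbr1 and Tgfbr3 the log2 ratios, -0.56 and -0.56, are about the size of the probe set spread. Each receptor was measured by 1 probe set only: the other 5 were below the limit on both arrays, so no ratio is given for them. On the null-labelled and wild-type arrays in turn, they read 456 and 204, and 263 and 103, for Tgfbr1. For Tgfbr2 they read 128 and 192, and 137 and 41.9, and for Tgfbr3 379 and 282. Only the first of these for Tgfbr2 was lower on the null-labelled array. The Tgfbr2 log2 ratio missed the 2-fold mark with quantile normalization (-0.93) and with loess (-0.96).

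Receptor Smads of this branch split. Smad3 read 6472 on the null-labelled and 4575 on the wild-type array, 1.41-fold higher, and its 2 other probe sets were below the limit on both. Smad2 read 1777 on the null-labelled and 2417 on the wild-type array at its brightest probe set, 1.36-fold lower, but 2172 on the null-labelled and 1719 on the wild-type array at its second, a log2 ratio of 0.34. The difference between the 2 Smad2 probe sets is thus larger than either ratio, and its direction is not settled here.

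Latent TGF-beta binding proteins showed small differences in both directions. Ltbp1, which anchors latent complexes, read 1208 on the null-labelled and 1453 on the wild-type array, 1.20-fold lower. Ltbp2, a microfibril protein that does not bind latent TGF-beta, read 1017 on the null-labelled and 837 on the wild-type array, 1.22-fold higher. Ltbp3 read 20483 on the null-labelled and 16287 on the wild-type array, 1.26-fold higher, at a probe set whose ID ends in _s_at, a class that can match several transcripts. Another Ltbp3 probe set read 1519 on the null-labelled and 2089.7 on the wild-type array, a log2 ratio of -0.46, so the direction depends on the probe set. Ltbp4 read 2988 on the null-labelled and 3143 on the wild-type array, 1.05-fold lower. None of these 4 ratios exceeded the probe set spread.

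Both targets listed for TGF-beta read lower, 1 of them by a margin within the probe set spread. Ctgf, a matricellular protein induced by TGF-beta and also by the Hippo pathway effector YAP, read 3446 on the null-labelled and 7429 on the wild-type array, 2.16-fold lower, at its single probe set. With quantile normalization its log2 ratio was -0.99, just short of 2-fold. Tgfbi, a TGF-beta-induced matrix protein, read 9448 on the null-labelled and 10146 on the wild-type array, 1.07-fold lower. Other Tgfbi probe sets pointed apart, with log2 ratios of 0.50 and -0.30. The plot of every measured probe set shows these disagreements beside the genes whose probe sets keep together.

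**Figure D2:**
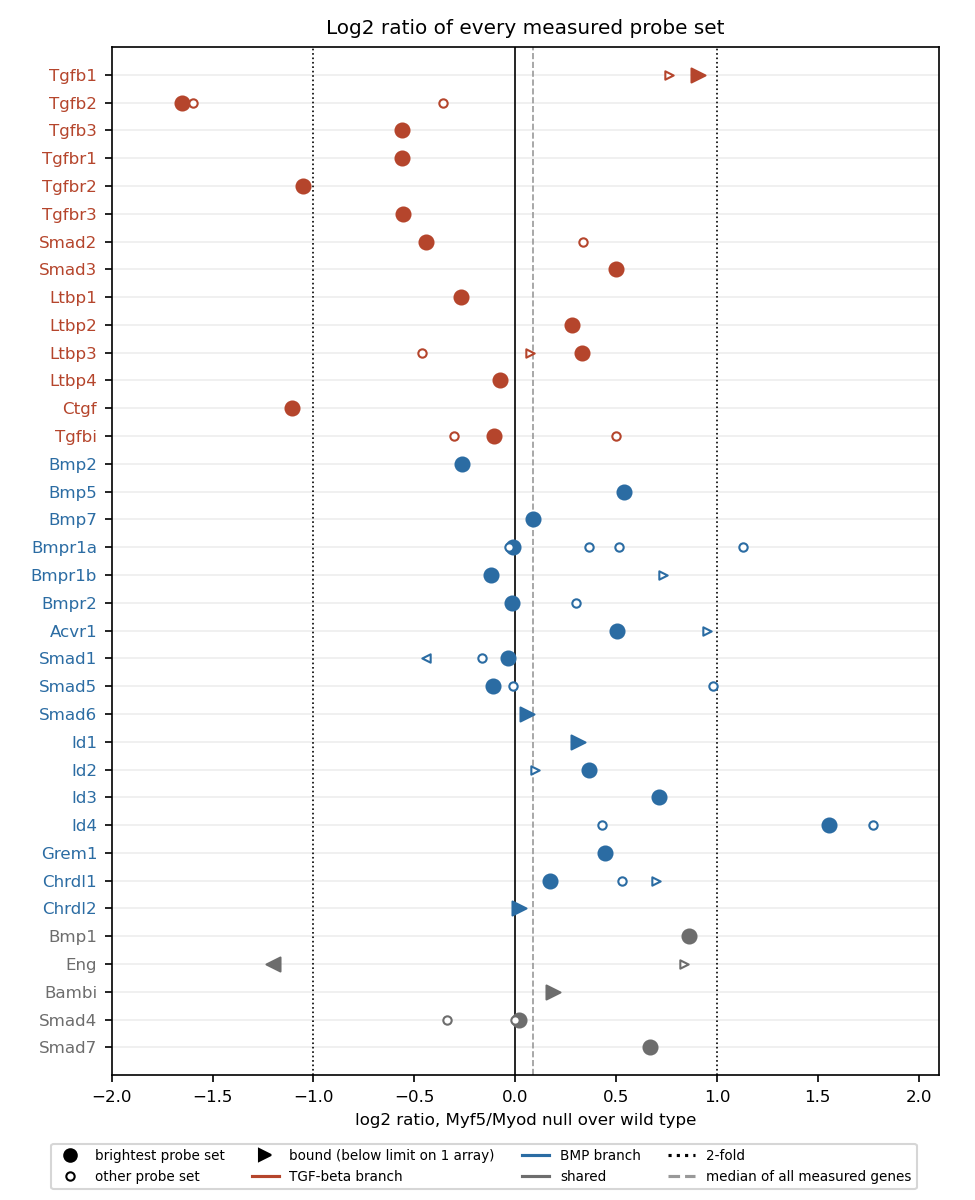
Log2 ratio of null-labelled over wild type for the 63 measured member probe sets, with the brightest of each gene filled and bounds as triangles; dotted lines mark 2-fold and the dashed line the median of all measured genes, 0.086. Tgfb2 at -1.65 and Id4 at 1.55 are the outermost of the brightest probe sets, each with a second probe set beyond 2-fold on the same side, whereas Eng has its 2 probe sets at -1.20 and 0.84.

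Among BMP ligands no gene reached 2-fold, and 3 of the 5 with a probe set were measured. Bmp2, a ligand of early mesoderm and heart, read 790.1 on the null-labelled and 949 on the wild-type array, 1.20-fold lower. Bmp5, a ligand of skeletal and soft tissue growth, read 860.3 on the null-labelled and 592 on the wild-type array, 1.45-fold higher, with its 2 other probe sets below the limit on both arrays. Bmp7, expressed in foregut and known for kidney and eye formation, read 1645 on the null-labelled and 1546 on the wild-type array, 1.06-fold higher. Bmp4, a ligand of foregut mesenchyme, lay just under the limit on each array, at 471 on the null-labelled and 477 on the wild-type array. Bmp6 was below it too, at 452 on the null-labelled and 297 on the wild-type array.

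BMP receptors at their brightest probe sets differed little, except Acvr1. Bmpr2, the type II receptor, read 31462 on the null-labelled and 31781 on the wild-type array, a log2 ratio of -0.015, and its second measured probe set had 0.30. Bmpr1a, the widely expressed type I receptor, read 14964 on the null-labelled and 15091 on the wild-type array, a ratio of -0.012. Its 4 other measured probe sets lay between -0.031 and 1.13, the last with 1553 on the null-labelled and 709 on the wild-type array. Bmpr1b, the type I receptor of cartilage, read 3269.8 on the null-labelled and 3553 on the wild-type array, 1.09-fold lower, while its second was at least 0.73 higher on the log2 scale. Acvr1, the type I receptor also called ALK2, read 1939 on the null-labelled and 1369 on the wild-type array, 1.42-fold higher, and its second probe set gave a bound of 0.95 in the same direction.

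BMP Smads were close to level at their brightest probe sets. Smad1 read 12064 on the null-labelled and 12365 on the wild-type array, 1.02-fold lower, and its other probe sets gave log2 ratios of -0.16 and -0.44, the last a bound. Smad5 read 5317 on the null-labelled and 5737 on the wild-type array, 1.08-fold lower, but 1665 on the null-labelled and 843 on the wild-type array at a second probe set, a log2 ratio of 0.98. Smad9 missed the limit on both arrays, at 226 on the null-labelled and 237 on the wild-type array. Smad6, the inhibitory Smad that BMP induces, read 509 on the null-labelled and 407 on the wild-type array, at the edge of the limit and at least 1.04-fold higher.

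The 4 Id genes all read higher on the null-labelled array, where 56.6% of all measured genes had a log2 ratio above 0. Id4, the family member best known from neural and germline progenitors, read 12876 on the null-labelled and 4382 on the wild-type array, 2.94-fold higher. A second Id4 probe set read 3089 on the null-labelled and 903 on the wild-type array, a log2 ratio of 1.77, and another 1384 on the null-labelled and 1028 on the wild-type array, a ratio of 0.43. Id3 had 2203 on the null-labelled and 1346 on the wild-type array, 1.64-fold higher. Id2 had 20939.7 on the null-labelled and 16242 on the wild-type array, 1.29-fold higher. Id1 was at 606 on the null-labelled array and 466, below the limit, on the wild-type array, so that it was at least 1.24-fold higher. Only Id4 and Id3 exceeded the probe set spread, and the Id1 ratio turned to -0.15 with quantile normalization and -0.18 with loess. The median over the 4 was 0.54 on the log2 scale.

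BMP antagonists gave 3 measured genes of 5, none of them 2-fold apart. Grem1, which encodes gremlin, read 1314 on the null-labelled and 966 on the wild-type array, 1.36-fold higher. Chrdl1, a chordin-like antagonist, read 2270.5 on the null-labelled and 2015 on the wild-type array, 1.13-fold higher, and 2 further measured ones had log2 ratios of 0.53 and 0.70, the last a bound. Chrdl2 was at the limit, with 495 on the null-labelled and 444 on the wild-type array. Chordin itself (Chrd) missed the limit on both arrays, at 336 on the null-labelled and 402 on the wild-type array. Noggin (Nog) read 306 on the null-labelled and 64.5 on the wild-type array, both under the limit, so no ratio is given.

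Of the 6 shared members, Bmp1 and Smad7 read higher and Smad4 level. Bmp1 is not a BMP ligand but a metalloprotease that cleaves procollagen and chordin. It read 2098 on the null-labelled and 1156 on the wild-type array, 1.82-fold higher, with its 2 other probe sets below the limit. Smad7, the inhibitory Smad of both branches, read 1125 on the null-labelled and 708 on the wild-type array, 1.59-fold higher. Smad4, the common partner, read 28632 on the null-labelled and 28242 on the wild-type array, a log2 ratio of 0.020, and its other probe sets had 0.0010 and -0.34. Bambi, a decoy receptor lacking a kinase domain, read 556 on the null-labelled and 50.1 on the wild-type array. With the limit it was at least 1.14-fold higher. At a 25th percentile limit the Bambi bound was 1.73 on the log2 scale, and with no limit and a pseudocount of 16 its ratio was 3.12. With quantile normalization, with loess and with the higher limit tried, Bambi lay below the limit on both arrays and had no ratio. The size of its difference thus depends on how low signals are treated.

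Eng and Acvrl1, the TGF-beta co-receptor and type I receptor of endothelium, gave no settled direction. Eng read 461 on the null-labelled and 1125 on the wild-type array at its brightest probe set, at least 2.30-fold lower. Its second probe set read 873 on the null-labelled and 445 on the wild-type array, at least 0.84 higher on the log2 scale, and the median of both was -0.18. Both Acvrl1 probe sets were below the limit on both arrays, 1 with 244 on the null-labelled and 398 on the wild-type array and the other with 312 on the null-labelled and 237 on the wild-type array. Endothelial markers did not share a direction either: 1 of 6 measured was at least 2-fold higher and 0 were lower. Of all measured genes 6.01% were at least 2-fold higher and 5.36% at least 2-fold lower. Summed signals of the endothelial markers were 7266 on the null-labelled and 9137 on the wild-type array. Emcn was at least 2.19-fold higher, Esam was 1.83-fold lower, and Pecam1, Tie1 and Vwf were below the limit on both arrays.

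The branches were then set side by side. In the TGF-beta branch 10 of 14 measured genes had a log2 ratio below 0, against 43.4% of all measured genes. With quantile normalization 8 of 14 were below 0, and with loess 11 of 14. In the BMP branch 11 of 17 were above 0, against 56.6% of all, and with median centring 9 of 17 were. Smad6, Id1 and Chrdl2 are bounds among the 11. They reached the limit on the null-labelled array only, which fixed their sign, and the same holds for Tgfb1 in the TGF-beta branch. Over genes at or above the limit on both arrays, 8 of 14 BMP genes were above 0 and 10 of 13 TGF-beta genes below 0. At least 2-fold lower were 3 of 14 genes of the TGF-beta branch, 21.4%, against 5.36% of all genes, and 0 of 17 of the BMP branch. That count rests on the scaling: with quantile normalization 1 of 14 TGF-beta genes was at least 2-fold lower, 7.14%, against 6.13% of all genes, and with loess 2 of 14, 14.3%, against 7.16%. At least 2-fold higher were 0 of the TGF-beta branch and 1 of 17 of the BMP branch, 5.88%, which is near the 6.01% of all genes. The median of the TGF-beta branch was 0.44 below that of the BMP branch (difference -0.44 on the log2 scale). By role within the branches, the medians were lowest for the 2 TGF-beta targets (-0.61), 3 ligands (-0.56) and 3 receptors (-0.56). They were highest for the 4 BMP targets (0.54), as the plot by branch and role shows. The TGF-beta targets lay far apart, with Ctgf at -1.11 and Tgfbi at -0.10, and Tgfbi had 0.062 with quantile normalization. The TGF-beta ligands ran from -1.65 to 0.91. Outside the branches, the shared members Bmp1 (0.86) and Smad7 (0.67) lay above the BMP target median. Members are not replicates, and these medians describe 1 pair of arrays.

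**Figure D3:**
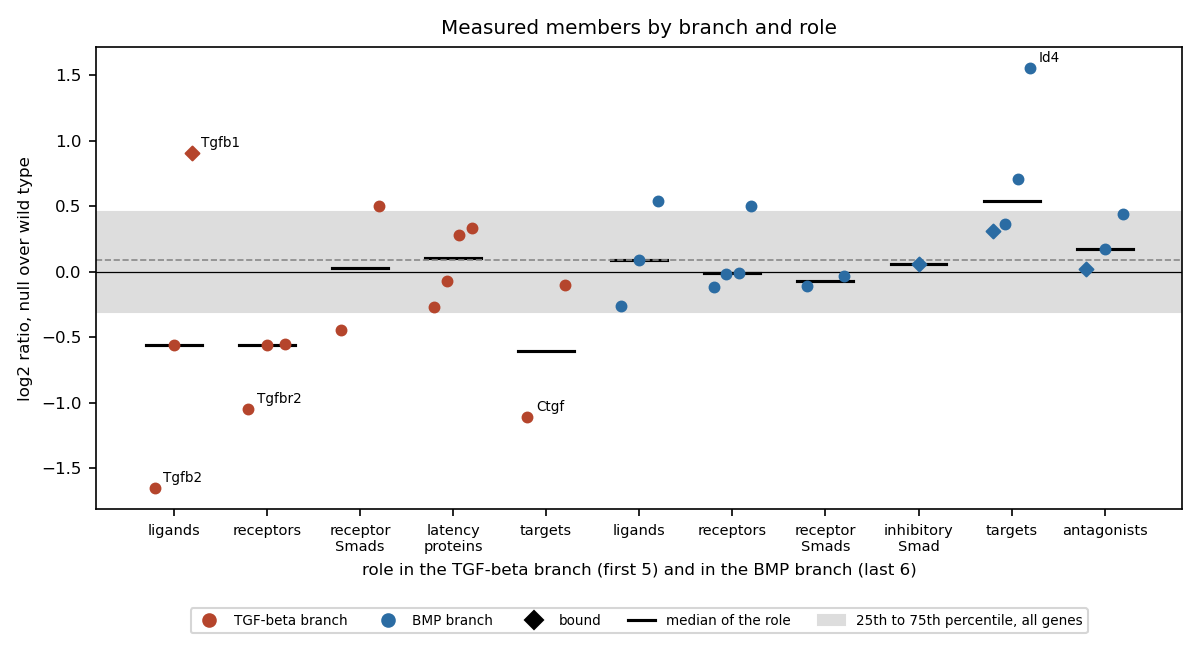
Log2 ratio of null-labelled over wild type for the 31 measured members of both branches, by role, with diamonds for bounds, black lines for the median of each role, and the grey band for the 25th to 75th percentile of all measured genes (-0.30 to 0.46). All 3 TGF-beta receptors lie below the band, the BMP receptors other than Acvr1 (0.50) lie inside it, and among the BMP targets Id3 and Id4 lie above it.

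The gap between branches was as wide over the genes at or above the limit on both arrays. Those had a median of -0.44 over 13 genes of the TGF-beta branch and 0.13 over 14 of the BMP branch. With every measured probe set counted singly the medians were -0.29 over 22 and 0.31 over 33 probe sets. Over the 8 alternative settings the difference between the medians stayed between -0.55 and -0.41. It narrowed to -0.19 when the 6 shared members were counted with the TGF-beta branch, whose median then was -0.10. Probe sets of a gene often disagreed: of 16 members with several measured probe sets, 7 had all of them on the same side of 0, against 47.7% of 5455 genes.

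**Figure D4:**
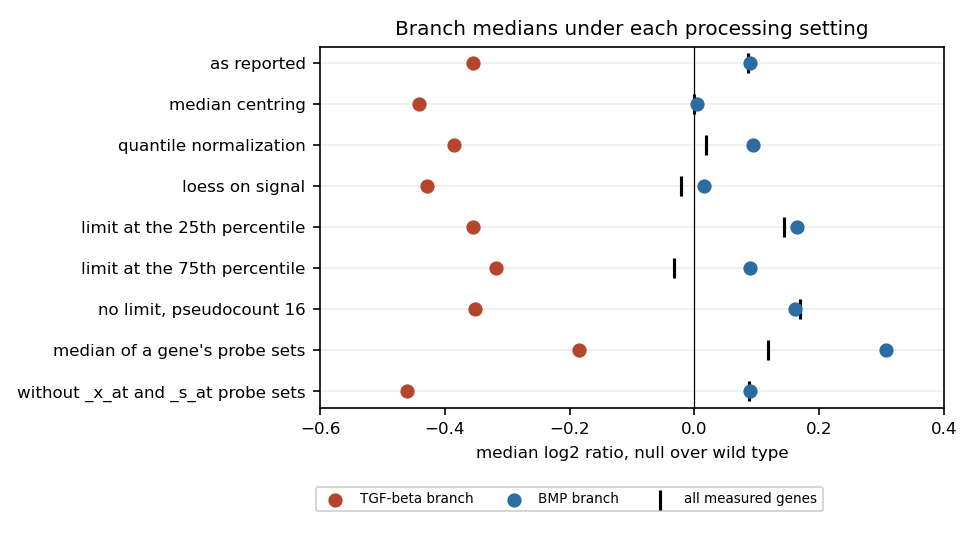
Median log2 ratio of null-labelled over wild type for the TGF-beta branch (red), the BMP branch (blue) and all measured genes (black ticks) as reported and under 8 other settings. The red points run from -0.46 to -0.18, all left of the ticks, and the blue points from 0.0037 to 0.31, close to the ticks except with the gene-wise median over probe sets.

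Other genes of the pathway, listed by known function, showed no such gap between their medians. Of 23 further TGF-beta pathway genes, 20 were measured, 1 was at least 2-fold lower and 0 higher, with a median log2 ratio of 0.12. The share lower, 5%, is near the 5.36% of all measured genes. The lower one was Smurf1, a ubiquitin ligase that targets Smads and receptors, with 671 on the null-labelled and 1444 on the wild-type array, 2.15-fold lower. Of 34 further BMP pathway genes, 19 were measured, 3 were at least 2-fold lower and 2 higher, with a median of 0.058. These are 15.8% lower and 10.5% higher, against 5.36% and 6.01% of all measured genes. Hjv, whose product hemojuvelin is a BMP co-receptor made in liver and skeletal muscle, read 84.7 on the null-labelled and 4703 on the wild-type array, at least 9.62-fold lower. Vwc2, which encodes the BMP antagonist brorin, read 540.1 on the null-labelled and 2417 on the wild-type array, 4.48-fold lower. Hey1, a transcriptional repressor that Notch and BMP induce, was 2.18-fold lower. Bmp2k, a kinase named for its induction by BMP2, and Crim1, a membrane protein that binds BMPs, were 2.65-fold and 2.55-fold higher. One Bmp2k probe set read slightly lower, with a log2 ratio of -0.095, and the second Crim1 probe set had 0.62.

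Cell type markers moved between the arrays beside these genes, and their part in the ratios was not tested. In bulk tissue, fewer cells of a type and less RNA per cell cannot be told apart. Of all measured genes 6.01% were at least 2-fold higher and 5.36% at least 2-fold lower. All 12 striated muscle markers were at least 2-fold lower at their brightest probe sets. Their summed signals were 10169 on the null-labelled and 405788 on the wild-type array. Myh3 was 161-fold and Ttn 105-fold lower. The second measured probe sets of Des and Ckm lay on the opposite side, with log2 ratios of 0.83 and 0.25. Of 9 smooth muscle markers 3 were at least 2-fold higher and 0 lower, with sums of 656541 on the null-labelled and 323926 on the wild-type array, among them Mylk (2.83-fold) and Lmod1 (at least 2.67-fold). Most of that sum came from Mylk and Acta2, without which it was 87082 on the null-labelled and 77284 on the wild-type array. Cnn1 (1.69-fold) and Tagln (1.38-fold) read lower. Of 8 fibroblast markers 0 were higher and 1 was lower, Postn (2.31-fold), with sums of 470047 on the null-labelled and 350039 on the wild-type array. Col3a1 was 1.69-fold higher. Most of the difference between the sums came from Col3a1 and Col1a2, without which they were 164919 on the null-labelled and 162132 on the wild-type array. Of the 8 fibroblast markers, 5 had a ratio above 0 and 3 below. The squamous epithelium markers, which define the lining of the labelled tissue, were at or above the limit on both arrays in 7 of 7 genes and had 2 at least 2-fold lower, Sprr3 (2.81-fold) and Krt14 (2.46-fold), with sums of 437156 on the null-labelled and 374856 on the wild-type array. Of the 7, 5 had a ratio below 0, and Krt4 (1.49-fold) and Trp63 (1.58-fold) read higher. The direction of the sum rests on Krt4, without which it was 178032 on the null-labelled and 201471 on the wild-type array.

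Markers of neighbouring tissue and of nerves were measured in part. The counts below stand beside 6.01% of all measured genes at least 2-fold higher and 5.36% at least 2-fold lower. Of 10 cartilage markers 5 were measured and 1, Sox9, was at least 2-fold higher (2.09-fold), with sums of 7116 on the null-labelled and 3922 on the wild-type array. Col11a1 was 1.71-fold higher, while Col2a1, Matn1, Col9a3, Hapln1 and Matn3 were below the limit on both arrays. Of 7 airway and lung markers 5 were measured and 1 was lower, Scgb3a2 (7.66-fold), with sums of 5449.9 on the null-labelled and 8149 on the wild-type array; without Scgb3a2 the sums were 4758 on the null-labelled and 2847 on the wild-type array. Sftpc was 1.68-fold higher, and Nkx2-1 and Scgb1a1 were below the limit on both. Of 7 enteric neuron and glia markers 2 were lower at their brightest probe sets, Ret (2.38-fold) and Snap25 (2.03-fold), and 0 higher. The sums were 6472 on the null-labelled and 7690.5 on the wild-type array. The second measured probe sets of Ret and Snap25 had log2 ratios of -0.025 and 0.25. Sox10 had -0.29 at its brightest probe set and 1.06 at its second.

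**Figure D5:**
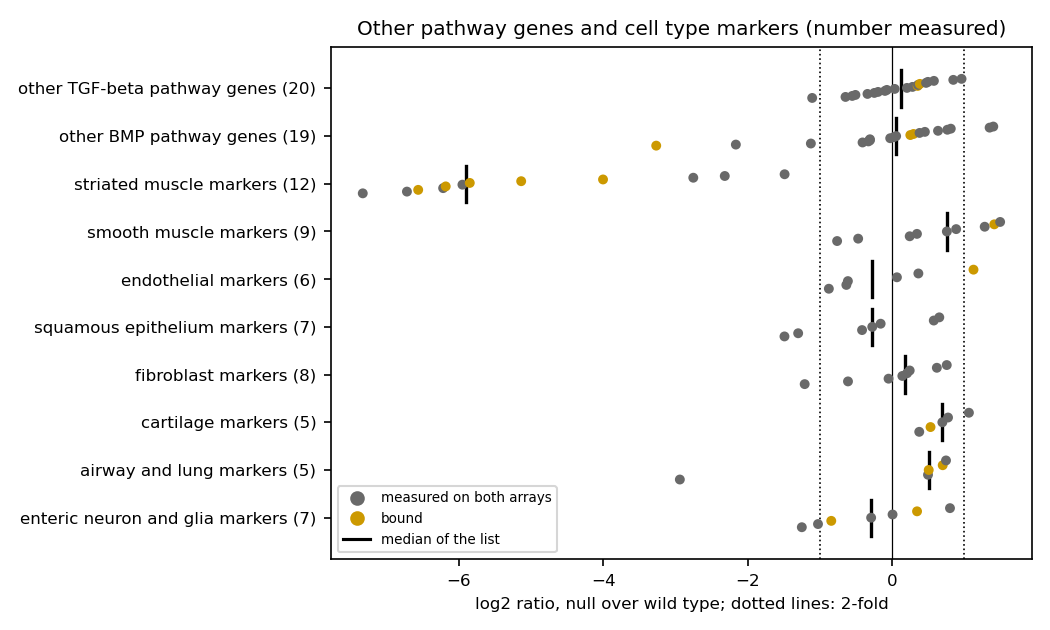
Log2 ratio of null-labelled over wild type for the measured genes of the other pathway lists and the cell type marker lists (number measured in brackets), with bounds in yellow, black bars for the median of each list, and dotted lines at 2-fold. The 12 striated muscle markers lie between -7.33 and -1.49, and the further TGF-beta genes centre at 0.12, not below 0.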

How the data were processed

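RNA of E18.5 esophagus was labelled from 6 µg of total RNA and hybridised to Affymetrix mouse arrays, per the labels' protocols. The authors deposited 1 signal intensity per probe set, made with MAS5 per the submitters' processing notes; the sources used here name neither its version nor its settings, and the table holds no detection calls. Precision is limited by the number of arrays, 2.

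The table has 45101 probe sets. Control probe sets (64) were left out, and 34945 others carry 1 gene symbol, 932 several and 9160 none in GEO's annotation of the platform, some of it possibly dated. Only those with 1 symbol were used. Each gene took its probe set of highest mean signal. Intensities below the limit, the 50th percentile of both arrays together, were raised to it, which left 13315 genes measured, 2969 of them as bounds. A gene counted at 2-fold. The call rules, gene lists and members were chosen with earlier results of these data known. All members were named, and from the other pathway lists each gene at least 2-fold apart. Marker lists gave up to 2 genes with the largest ratio plus those below the limit. Acta2, Cnn1, Tagln, Col1a2, Krt4, Trp63, Des, Ckm and Sox10 were added after their values were seen. The steps were tested on simulated arrays, with differences set only in bright genes and noise smaller than the probe set spread. That test says nothing of genes near the limit. Alternatives were median centring, quantile normalization, loess (span 0.3), limits at the 25th and 75th percentiles, a pseudocount of 16 in place of the limit, the gene-wise median over probe sets, leaving out _x_at and _s_at probe sets, 1.5-fold, and moving the shared members. Promoters came from RefSeq (GRCm38.p6), with 27 of 43 members matched. Python 3.11.15, numpy 2.4.6, pandas 2.3.3 and statsmodels 0.14.6 were used.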

Additional observations from a re-analysis of the deposited data

How the results depend on the processing

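Of 274 member log2 ratios under 8 alternatives, 268 moved by less than the probe set spread and 0 turned a 2-fold call round. Many of the 268 could not move: a lower limit leaves genes measured on both arrays unchanged, and the gene-wise median leaves those with 1 measured probe set unchanged. Members below the limit on both arrays in a setting, such as Bambi with quantile normalization and loess, are not among the 274. The 6 that moved by more were Tgfb1 and Bambi with the lower limit or none, Ltbp3 and Eng. Ltbp3 had -0.46 without _x_at and _s_at probe sets, and Eng had -0.18 with the median of its probe sets. For medians the yardstick was that spread divided by the square root of the number of genes. It treats genes as independent and is not an error of the medians, so it served only to choose which shifts to list. Quantile normalization left 2 of 38 measured members at least 2-fold lower (Tgfb2 and Eng), where 6.13% of all genes were, so that the members' share was no longer above the background; 4.16% of genes were higher. Members at least 2-fold higher were 3 at a 25th percentile limit, 4 with no limit, where Nog, Tgfb1 and Bambi joined Id4. At a 1.5-fold threshold 5 of 36 members were higher, against 18.8% of all genes, and 4 of 36 lower, against 13.1%, both shares below the background. The background moved too: 16.6% of genes were higher and 7.45% lower with the 25th percentile limit, 19.5% and 9.37% with no limit, 1.85% and 4.80% with the 75th, and 3.43% and 7.16% with loess. Loess also moved the median of all genes by over 0.1, to -0.021 from 0.086, and the 75th percentile limit moved it to -0.033. The gene-wise median over probe sets gave -0.18 for the TGF-beta branch and 0.31 for the BMP branch. Counting probe sets singly, chosen after seeing the data like the restriction to genes measured on both arrays, gave 0.31 for the BMP branch. With the shared members the TGF-beta median was -0.10 and the difference -0.19. The further BMP genes had medians of -0.14 with loess, 0.38 and -0.30 with limits at the 25th and 75th percentiles, 0.21 with no limit and 0.30 without _x_at and _s_at probe sets; the further TGF-beta genes had -0.058 with the 75th percentile limit and -0.032 with the gene-wise median. The cause of these shifts was not tested. Bmp4, Bmp6, Smad9, Nog, Chrd and Acvrl1 were too dim for a ratio in the reported setting, and with 1 array per genotype none of these differences has an error between animals.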
